A study of Mus musculus with 25 samples.

Results

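Of the 45672 accessible sites in the series, 182 met a rule for opening by Neurog2 together with Hmgb2, but not by Neurog2, in cortical astrocytes grown with bFGF as the only growth factor. They were chosen by the deposited accessibility values, which are on the log2 scale after the regularized logarithm (rlog) of the authors. At a chosen site all 3 bFGF Neurog2+Hmgb2 libraries lay above all 3 bFGF Control libraries, the difference of the means was at least 0.5, and the bFGF Neurog2 mean exceeded the bFGF Control mean by less than 0.2. The values met this rule at 193 peaks, of which 11 shared sequence with a transduced coding sequence and were left out. None of the 193 lay on the mitochondrial chromosome. The 9 libraries of those 3 groups therefore fixed how the sites behave in bFGF culture, and their values are given as a description. The other 16 libraries were not used for the choice.

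All cells came from wild-type C57BL/6J mice at P5 to P6, from cortex, labelled as grey matter where the methods of the study name white matter. They were expanded as primary astrocytes for 10 days with 10 ng/ml bFGF (bFGF culture) or with 10 ng/ml EGF and 10 ng/ml bFGF (EGF + bFGF culture). They were then transduced with retroviruses carrying Neurog2 and Hmgb2, Neurog2, Hmgb2 or, as Control, a fluorescent reporter alone. Transgenes were driven by the CAG promoter, and fluorescent cells were sorted 48 h later for ATAC-seq, in which a transposase cuts and tags open DNA. Each of the 8 groups held 3 libraries, except Hmgb2 in EGF + bFGF culture with 4. The labels do not tell whether the libraries of a group are separate animals or cultures, so every p-value measures the spread between libraries, which may be technical. These are bulk libraries, in which fewer cells with an open site and a smaller opening in each cell cannot be told apart.

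Neurog2 is a proneural basic helix-loop-helix factor that, paired with an E protein, binds E-boxes (CANNTG), most readily CAGATG and CAGCTG, including sites in closed chromatin, and starts neuronal gene programs. Hmgb2 is an abundant chromatin protein with HMG boxes that bends DNA without strict sequence preference and is high in proliferating progenitors. The comparison of Neurog2+Hmgb2 with Neurog2 in bFGF culture addresses which sites open in these cells when the level of Hmgb2 is raised. The study carried Neurog2 on a dsRED virus and Hmgb2 on a separate GFP virus, and sorted cells by fluorophore. These groups therefore also differ in the added virus and its reporter, and these cannot be told apart from the level of Hmgb2.

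The DNA at the strongest of these sites is shown to let the E-boxes be read beside the values. Among the 10 chosen sites with the largest bFGF Neurog2+Hmgb2 difference, these 5 were the highest ranked with an E-box in the central 300 bases, leaving out the sites nearest to Ss18 and Setd4 and any centred in a UTR. The sequence is the plus strand of GRCm38 (mm10) from RefSeq, each site carries the name of the protein-coding gene whose transcription start site (TSS) was nearest, and capitals mark every CANNTG.
Grb14 site, chr2:64522258-64522557: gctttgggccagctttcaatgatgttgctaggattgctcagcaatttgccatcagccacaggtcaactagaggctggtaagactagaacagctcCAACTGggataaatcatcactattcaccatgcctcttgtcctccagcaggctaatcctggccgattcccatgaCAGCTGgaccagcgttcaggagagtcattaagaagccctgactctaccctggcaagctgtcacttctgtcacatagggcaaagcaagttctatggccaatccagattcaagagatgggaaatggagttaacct
Gbe1 site, chr16:70586020-70586319: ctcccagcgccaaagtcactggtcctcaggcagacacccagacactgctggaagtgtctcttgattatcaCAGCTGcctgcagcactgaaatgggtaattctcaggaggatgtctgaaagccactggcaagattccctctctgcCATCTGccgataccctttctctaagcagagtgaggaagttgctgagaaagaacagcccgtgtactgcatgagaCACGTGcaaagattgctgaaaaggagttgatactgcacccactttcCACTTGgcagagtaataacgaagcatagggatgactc
Cntnap2 site, chr6:45381261-45381560: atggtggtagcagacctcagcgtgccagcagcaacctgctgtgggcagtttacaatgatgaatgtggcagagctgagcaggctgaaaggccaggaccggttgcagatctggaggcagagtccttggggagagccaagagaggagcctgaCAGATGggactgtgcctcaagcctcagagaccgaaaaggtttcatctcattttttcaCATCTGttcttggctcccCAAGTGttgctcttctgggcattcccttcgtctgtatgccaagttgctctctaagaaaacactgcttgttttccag
Lmo4 site, chr3:144124423-144124722: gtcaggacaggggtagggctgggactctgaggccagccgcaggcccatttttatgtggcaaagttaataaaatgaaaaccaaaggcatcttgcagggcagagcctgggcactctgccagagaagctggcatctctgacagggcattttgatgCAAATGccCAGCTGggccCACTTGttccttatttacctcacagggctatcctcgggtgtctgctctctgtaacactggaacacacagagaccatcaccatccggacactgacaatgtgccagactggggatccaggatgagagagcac
Cflar site, chr1:58739672-58739971: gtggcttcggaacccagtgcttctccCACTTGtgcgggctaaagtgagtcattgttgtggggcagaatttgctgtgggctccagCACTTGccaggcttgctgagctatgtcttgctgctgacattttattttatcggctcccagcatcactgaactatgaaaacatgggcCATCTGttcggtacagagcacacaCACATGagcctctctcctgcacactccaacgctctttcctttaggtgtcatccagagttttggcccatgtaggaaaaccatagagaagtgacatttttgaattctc

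The windows held 2 to 4 E-boxes. CAGATG, read on either strand (CATCTG on the strand shown counts as well), occurred 2 times at the Cntnap2 site and 1 time each at the Gbe1 and Cflar sites. CAGCTG occurred 1 time each at the Grb14, Gbe1 and Lmo4 sites. The Grb14 and Gbe1 sites were intergenic, 395 and 272 kb from the TSS that names them. The Cntnap2 and Cflar sites lay in introns of Cntnap2, a neurexin family adhesion gene, and Cflar, an inhibitor of caspase-8. The Lmo4 site lay in an intron of the annotated transcript Gm34078, 77.5 kb from Lmo4, a LIM-only transcription cofactor.

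Over the 182 sites the rule left differences of modest size. The median difference between Neurog2+Hmgb2 and Control in bFGF culture was 0.57, the quartiles were 0.53 and 0.65, and the largest was 1.04 at the Grb14 site, the only one to reach 1. The median Neurog2 difference from Control was 0.14, and 163 of the 182 sites lay above 0. Of the 182, 110 had a Neurog2+Hmgb2 difference under 0.6 and 78 a Neurog2 difference of 0.15 or more. The chosen sites nearest the limit of 0.5 were those of Decr2 (0.501) and Igfbpl1 (0.501), and just outside it stood Mex3b (0.4999) and Zbtb7c (0.497). At the limit of 0.2 the last inside were Gabrb2 (0.1997) and Psmf1 (0.199), and the next outside were Xkr9 (0.201) and 3110018I06Rik (0.201). The lowest Neurog2+Hmgb2 library cleared the highest Control library by 0.009 at the Tfap2c site and 0.012 at the Cog6 site, and missed it by a difference of -0.003 at Csf2ra and -0.008 at Ltbp2. One site, that of Grb14, was a more accessible site (MAS, adjusted p under 0.05 and a difference over 1) in the contrast that chose it, a call given to 0.429% of all peaks and read no further here.

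Signal at the transduced genes was examined in every library. At the Neurog2 coding exon, where reads from the retroviral insert also map, accessibility averaged 13.8 ± 1.8 in bFGF Neurog2+Hmgb2 and 13.2 ± 2.7 in bFGF Neurog2, against 7.22 ± 0.58 in bFGF Control (SD, n = 3 each). The averages in EGF + bFGF culture were 14.6 ± 1.4 for Neurog2+Hmgb2 and 13.9 ± 1.7 for Neurog2, against 9.38 ± 1.77 for Control (SD, n = 3 each). Replicate 1 of Hmgb2 had 12.7 in bFGF culture and 12.3 in EGF + bFGF culture at this exon, above the 6.77 to 8.43 of the other Hmgb2 libraries, although the labels name no Neurog2 virus for them. Control replicates 1 and 2 of EGF + bFGF culture had 10.3 and 10.5, and the other Control libraries 6.76 to 7.87. Over the 6 peaks matching at least 500 bp of the Hmgb2 coding sequence, the group means were 8.33 to 9.47 in the 4 groups with Hmgb2 and 4.71 to 5.40 in the 4 groups without. As for the identity of the cells, 8 of 10 astrocyte markers had a promoter peak, at 5.21 to 7.01, beside a median of 6.09 over all promoters. Peaks were found at 4 of 6 neuronal promoters (5.33 to 6.70), 5 of 6 of the oligodendrocyte lineage (2.77 to 6.30), 3 of 6 of fibroblast and mural cells (4.73 to 5.34), 2 of 6 of microglia (4.14 and 4.16) and 1 of 5 of endothelium (5.75). The median was 5.82 for the astrocyte promoters and 6.17 for the neuronal ones, so these levels do not rank the astrocyte markers first. Promoter accessibility does not measure expression.

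In bFGF culture the mean over the 182 sites was 4.62, 4.83 and 4.78 in the Neurog2+Hmgb2 libraries and 4.34, 4.07 and 4.34 in the Neurog2 libraries, against 4.16, 4.13 and 4.14 in the Control libraries. Neurog2 replicate 2 therefore lay below every Control library, whereas replicates 1 and 3 lay above them. That library stood apart across all peaks too: its mean correlation with the libraries of its own group was 0.94, the lowest of the 25, and its value on the second principal component was -73.8, against 15.2 and -26.3 for the other two. It also had the lowest signal of the 12 Neurog2-transduced libraries at the Neurog2 exon, 10.6, where the others had 11.8 to 16.1. Their part in the choice of sites was not tested, but the weight of the library was measured directly. It was the lowest of the 3 Neurog2 libraries at 124 of the 182 sites (68.1%), a place it took at 38.6% of all peaks. When it was left out the rule gave 156 sites, of which 89 were among the 182. At 101 of the 182 sites all 3 Neurog2 libraries lay below all 3 Neurog2+Hmgb2 libraries. The share over all peaks was not computed for this count. Under the rule the Neurog2+Hmgb2 mean was at least 0.306 above the Neurog2 mean at every chosen site. All these counts describe values that the rule used.

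**Figure D1:**
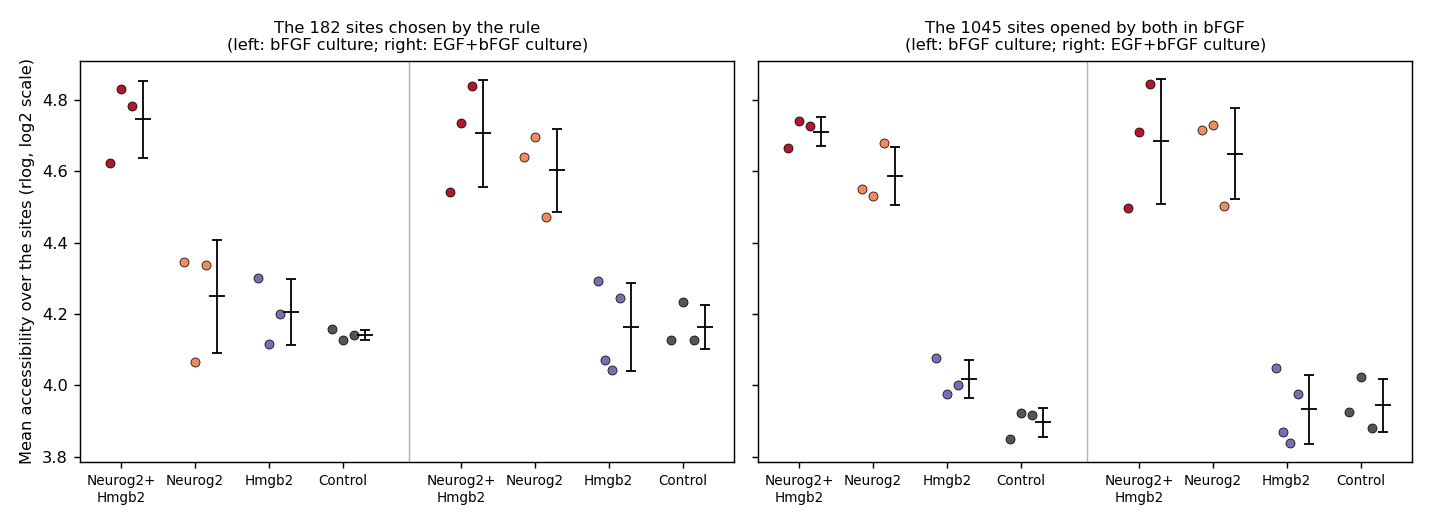
Mean accessibility (rlog, log2 scale) of each library over the 182 chosen sites (left panel) and over the 1045 sites opened by both Neurog2+Hmgb2 and Neurog2 in bFGF culture (each difference at least 0.5, right panel), by group on the horizontal axis. Each point is a library, and the bar beside the points is the group mean with its SD. Over the chosen sites the EGF + bFGF Neurog2 libraries sit at 4.47 to 4.70, above the EGF + bFGF Control libraries at 4.13 to 4.23, while in bFGF culture the Neurog2 group spans 4.07 to 4.34, and the bFGF columns of both panels reflect the values the sites were chosen by.

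In libraries the choice did not use, the Neurog2+Hmgb2 difference from Control was weaker for replicates 1 and 3 and had the opposite sign for replicate 2. Sites were chosen again from replicates with 2 of the 3 numbers, and the libraries with the remaining number were then read at those sites. With replicate 1 left out, the median difference from Control in the left-out libraries was 0.20 for Neurog2+Hmgb2 and 0.18 for Neurog2 (744 sites). With replicate 3 left out, it was 0.38 for Neurog2+Hmgb2 and 0.28 for Neurog2 (509 sites). With replicate 2 left out, it was -0.14 for Neurog2+Hmgb2 and 0.33 for Neurog2 (531 sites). In the libraries that chose them, the medians had been 0.58 to 0.59 for Neurog2+Hmgb2 and 0.08 to 0.10 for Neurog2. The left-out Neurog2+Hmgb2 library exceeded the left-out Neurog2 library at 52.6%, 19.2% and 61.9% of the sites for replicates 1, 2 and 3. The median of Neurog2+Hmgb2 minus Neurog2 in the left-out libraries was 0.02, -0.50 and 0.09. These lists are longer than the 182 and shared 126, 43 and 98 sites with them. In each case Neurog2 itself was above Control at most sites, 62.8%, 75.5% and 76.4%.

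**Figure D2:**
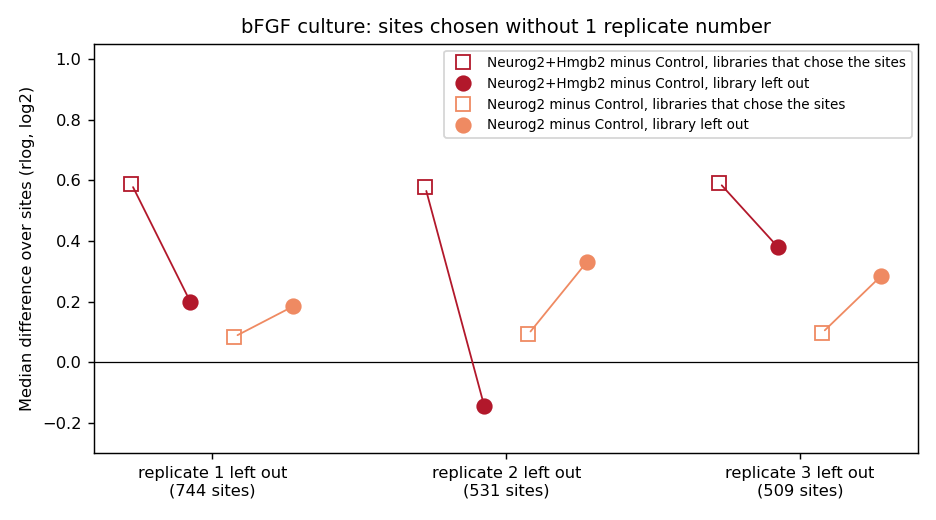
Median difference over sites (rlog, log2 scale) when the rule was applied without 1 replicate number. Open squares are the libraries that chose the sites and filled circles the libraries left out, in dark red for Neurog2+Hmgb2 minus Control and in orange for Neurog2 minus Control, with the number of sites under each pair. The dark red circles lie at 0.20, -0.14 and 0.38, below their squares, and the orange circles at 0.18, 0.33 and 0.28, above theirs.

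In EGF + bFGF culture, whose libraries had no part in the choice, part of the sites were called higher with Neurog2+Hmgb2 and part with Neurog2 alone. With Neurog2+Hmgb2, 82 of the 182 sites (45.1%) were higher than in Control at an adjusted p under 0.05 (limma), where 3.97% of all 45672 peaks were, and 0 were lower, where 1.07% of all peaks were. The median difference was 0.59, beside -0.01 over all peaks, 172 of 182 sites were above 0, and at 131 sites (72.0%, beside 12.5% of all peaks) every Neurog2+Hmgb2 library lay above every Control library. With Neurog2, 65 sites (35.7%) were higher, where 3.94% of all peaks were, and 0 were lower, where 1.07% of all peaks were. The median was 0.52, beside -0.02 over all peaks, 160 sites were above 0, and at 118 (64.8%, beside 12.8% of all peaks) the libraries did not overlap. With Neurog2, 45 sites had a difference under 0.2, of which 22 were at or below 0. Both comparisons share their 3 Control libraries, and 50 sites were called in both. The share of all peaks called in both was not computed. As MASs stood 9 sites with Neurog2+Hmgb2 and 8 with Neurog2, where 0.698% and 0.766% of all peaks did. The spread was pooled over all 25 libraries, so these p-values also draw on the 9 libraries of the rule. A fit of the compared groups only called 95 sites higher with Neurog2+Hmgb2. With Neurog2 it called 80 higher and 3 lower. The counts moved with single libraries. The Neurog2+Hmgb2 count fell to 33 when Neurog2+Hmgb2 replicate 3 was left out, and to 52 or 48 when the library left out was Control replicate 1 or 3. The Neurog2 count was 26 or 31 after removal of Neurog2 replicate 1 or 2, and 42, 40 or 41 after removal of Control replicate 1, 2 or 3. The share of all peaks called was not computed for these other fits. A change at these sites can therefore not be told from a change in calls at all peaks.

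The library means over the sites in this culture were 4.54, 4.74 and 4.84 with Neurog2+Hmgb2, 4.64, 4.70 and 4.47 with Neurog2, and 4.13, 4.23 and 4.13 in Control. Neither transduced group overlapped with Control, and they overlapped with each other. In the direct test of Neurog2+Hmgb2 against Neurog2 in EGF + bFGF culture, 0 of the 182 sites were called higher, where 0.0153% of all peaks were, and 0 lower, where 0% were. At an unadjusted p under 0.05 there were 20 sites (10.99%, beside 4.97% of all peaks), 19 of them higher. The median difference was 0.08 with quartiles of -0.06 and 0.27, beside 0.01 over all peaks, and the median standard error of a site was 0.19, so that a difference of the size of this median was not detectable at a single site. Applied to the EGF + bFGF libraries, the rule itself found 159 sites. They shared 4 with the 182, which is 2.20% of the 182 and 2.52% of the 159, where 0.348% of all peaks met the rule in that culture. With Neurog2 and Neurog2+Hmgb2 exchanged, the rule found 50 sites in bFGF culture and 68 in EGF + bFGF culture. In bFGF culture the exchanged rule needs Neurog2 replicate 2 above every Control library. The dependence of its count on that library was not tested.

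**Figure D3:**
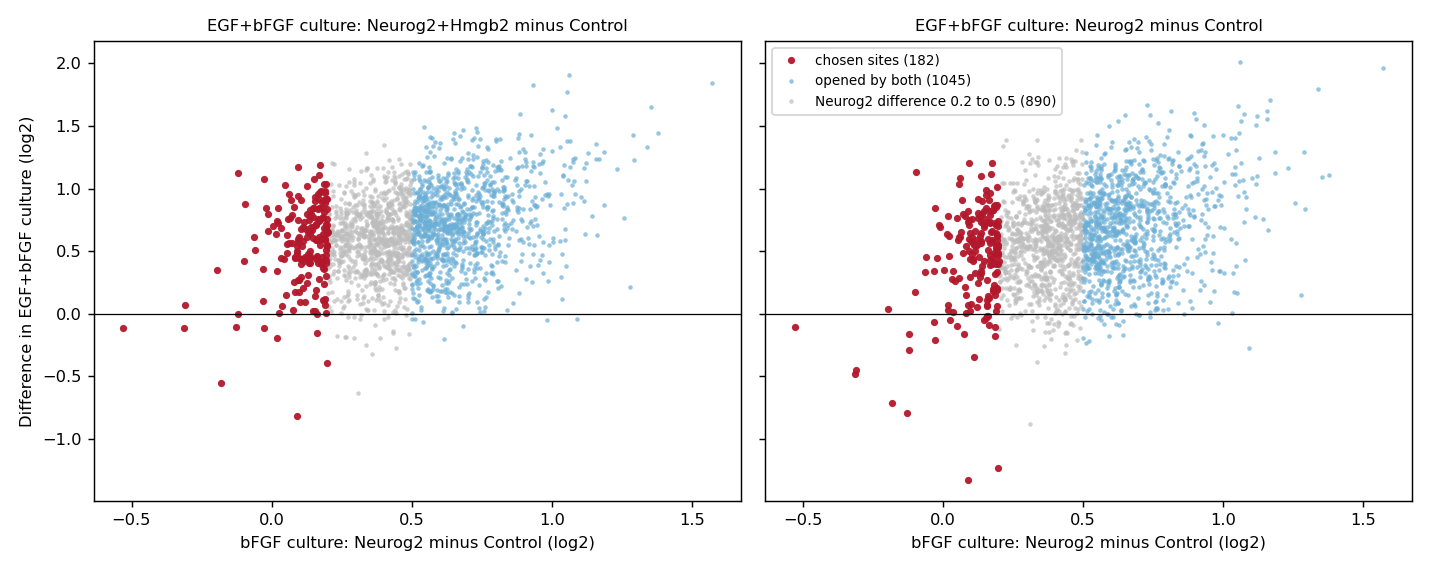
All 2117 sites opened by Neurog2+Hmgb2 in bFGF culture, with the bFGF Neurog2 minus Control difference on the horizontal axis (used by the rule) and the EGF + bFGF difference from Control on the vertical axis (not used), for Neurog2+Hmgb2 (left) and Neurog2 (right), all on the log2 scale. Each point is a site, in red the 182 chosen, in grey the 890 with a bFGF Neurog2 difference of 0.2 to 0.5, in blue the 1045 opened by both. Most red points lie above 0 in both panels, 172 and 160 of 182, and the red cloud adjoins the grey one without a gap.

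Set beside the other sites opened by Neurog2+Hmgb2 in bFGF culture, the chosen ones were at the lower end with Neurog2 in EGF + bFGF culture. The median EGF + bFGF Neurog2 difference was 0.52 at the chosen sites, 0.58 at the 890 sites with a bFGF Neurog2 difference of 0.2 to 0.5, and 0.71 at the 1045 sites opened by both. The share called higher with Neurog2 was 35.7%, 44.3% and 57.5% in that order. For Neurog2+Hmgb2 the medians were 0.59, 0.60 and 0.74, and the shares called higher 45.1%, 46.1% and 64.2%. With that transduction the chosen sites were thus close to the 890. These groups of sites differ in the rule's own values, and no test was made between them. Within the 182, the 89 sites that still met the rule without bFGF Neurog2 replicate 2 had a median EGF + bFGF Neurog2 difference of 0.35, with 23 called higher, and the 93 others had 0.59, with 42 called. With Neurog2+Hmgb2 the medians were 0.50 and 0.61, with 39 and 43 called. At 19 sites the bFGF Neurog2 mean lay below that of bFGF Control, and the median of these in EGF + bFGF culture was 0.36 with Neurog2+Hmgb2 and 0.04 with Neurog2.

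Hmgb2 without Neurog2 left the sites near the level of Control. In EGF + bFGF culture, the library means were 4.29, 4.07, 4.04 and 4.24 with Hmgb2, against 4.13, 4.23 and 4.13 in Control. No site was called, with 0 higher, where 0.00219% of all peaks were, and 0 lower, where 0% were. The median difference was 0.02, or -0.03 without Hmgb2 replicate 1, the library with signal at the Neurog2 exon. At an unadjusted p under 0.05 there were 20 sites (10.99%, beside 9.14% of all peaks), 9 of them higher. In bFGF culture the Hmgb2 libraries had 4.30, 4.12 and 4.20, against the 4.16, 4.13 and 4.14 of the Control libraries, which the rule had used and which are given without a test. Hmgb2 in bFGF culture was not set apart from Hmgb2 in EGF + bFGF culture at any site, with 0 called higher, where 0% of all peaks were, and 0 lower, where 0% were. The median difference between those groups was 0.04, and 3 sites (1.65%, beside 3.44% of all peaks) had an unadjusted p under 0.05, 2 of them higher.

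The sites with the largest differences in bFGF culture behaved unlike one another in EGF + bFGF culture. At the Grb14 site, bFGF values were 5.05, 5.48 and 4.86 with Neurog2+Hmgb2 and 4.55, 4.01 and 4.23 with Neurog2, against 3.77, 4.21 and 4.28 in Control. In EGF + bFGF culture they were 4.99, 5.05 and 5.36 with Neurog2+Hmgb2 and 4.82, 5.16 and 4.45 with Neurog2, against 4.17, 4.24 and 4.05 in Control. All 6 of these EGF + bFGF libraries with Neurog2 stood above their Control, and the differences were 0.98 ± 0.19 for Neurog2+Hmgb2 (SE, adjusted p = 0.0025) and 0.66 ± 0.19 for Neurog2 (adjusted p = 0.045). The call for Neurog2 was lost in 7 of the fits that left out 1 library and with quantile normalization.

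At the Cntnap2 site, with 2 CAGATG in its window, EGF + bFGF values were 3.88, 4.07 and 4.16 with Neurog2+Hmgb2 and 3.88, 3.45 and 3.25 with Neurog2, against 3.07, 3.13 and 2.80 in Control. Every transduced library was above Control. The difference of 1.03 ± 0.18 for Neurog2+Hmgb2 was called (adjusted p = 0.00071), and the 0.52 ± 0.18 for Neurog2 was not (adjusted p = 0.089). The Cflar site had the same pattern, at 3.04, 3.61 and 3.45 with Neurog2+Hmgb2 and 2.95, 2.84 and 2.70 with Neurog2, against 2.69, 2.69 and 2.67 in Control. Its difference was 0.69 ± 0.17 for Neurog2+Hmgb2 (adjusted p = 0.015) and 0.15 ± 0.17 for Neurog2 (adjusted p = 0.76). Neither site was called in the direct test of Neurog2+Hmgb2 against Neurog2.

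The Setd4 site, a peak of 147 bp in an intron of Setd4 and 1250 bp from a TSS, went the other way. It had 6.75, 6.76 and 7.00 with Neurog2+Hmgb2 in bFGF culture, against 6.07, 5.84 and 5.99 in Control, but in EGF + bFGF culture it had 5.95, 5.50 and 6.33 with Neurog2+Hmgb2 and 5.38, 5.71 and 5.16 with Neurog2, against 6.34, 7.85 and 6.02 in Control. The groups with Neurog2+Hmgb2 and with Control overlapped there, all Neurog2 libraries lay below Control, and the differences of -0.81 ± 0.41 (adjusted p = 0.34) and -1.33 ± 0.41 (adjusted p = 0.058) were not called. Intergenic DNA nearest to Ascc3, a helicase subunit, was similar, with -0.39 ± 0.43 (adjusted p = 0.78) for Neurog2+Hmgb2 and -1.23 ± 0.43 (adjusted p = 0.11) for Neurog2. The standard errors of both sites were well above the median of 0.19.

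The rest of the 10 were called with 1 or both transductions, with the exception of Lmo4. The site of Gbe1, a glycogen branching enzyme, differed by 0.98 ± 0.23 with Neurog2+Hmgb2 (adjusted p = 0.011) and by 0.87 ± 0.23 with Neurog2 (adjusted p = 0.025). The site nearest to Tas2r119, a bitter taste receptor gene, differed by 0.93 and 0.95, and that nearest to Chd5, within a UTR of Kcnab2, by 0.77 and 0.86, all 4 of them called. The site nearest to Ss18 was called with Neurog2+Hmgb2 (0.82 ± 0.19, adjusted p = 0.0095) and not with Neurog2 (0.31 ± 0.19, adjusted p = 0.45). At the Lmo4 site the differences of 0.68 and 0.76 had adjusted p-values of 0.10 and 0.060.

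**Figure D4:**
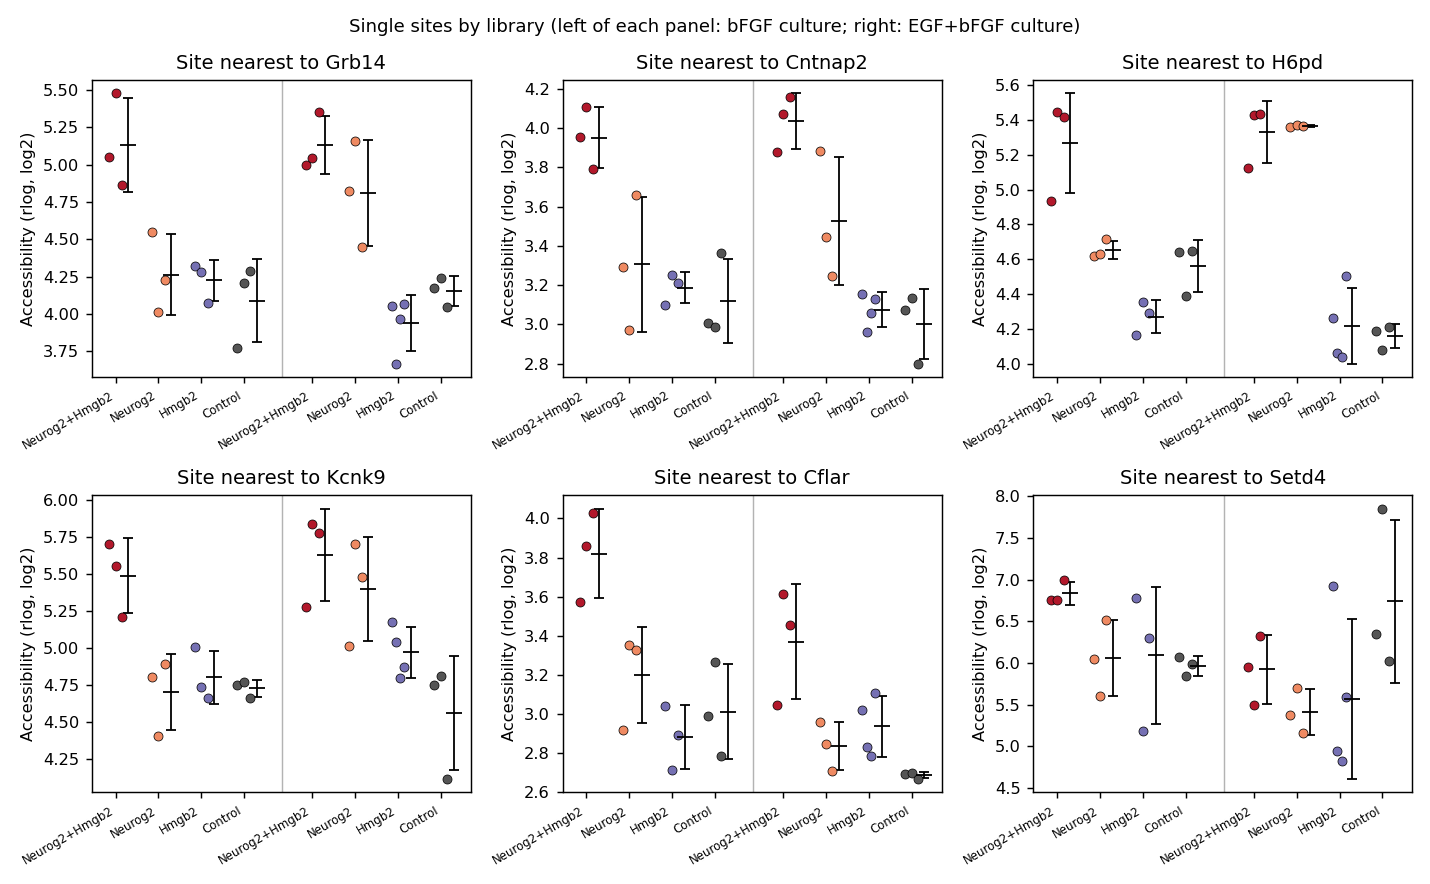
Accessibility (rlog, log2 scale) of 6 single sites in all 25 libraries, with bFGF culture to the left of the line in each panel and EGF + bFGF culture to the right. Points are libraries and the bars beside them are group means with their SD. At the H6pd site the EGF + bFGF Neurog2 libraries lie at 5.36 to 5.37, above the bFGF Neurog2 libraries at 4.62 to 4.71, and at the Setd4 site the EGF + bFGF Control libraries, at 6.02 to 7.85, are the highest of that culture on average.

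The sites with the smallest p-values for Neurog2 in EGF + bFGF culture were called with Neurog2+Hmgb2 as well. At an intronic site of H6pd, an enzyme that makes NADPH in the endoplasmic reticulum, values were 5.12, 5.43 and 5.43 with Neurog2+Hmgb2 and 5.36, 5.37 and 5.36 with Neurog2, against 4.19, 4.08 and 4.21 in Control. No library overlapped with Control, and the differences were 1.17 ± 0.16 (adjusted p = 7.7e-05) and 1.20 ± 0.16 (adjusted p = 4.7e-05). The same site in bFGF culture had 4.94, 5.44 and 5.42 with Neurog2+Hmgb2 and 4.62, 4.63 and 4.71 with Neurog2, against 4.64, 4.39 and 4.65 in Control. Here the 3 Neurog2 libraries lay close together and overlapped with Control, and the site met the rule without Neurog2 replicate 2 as well. An intronic site of Igsf21, an inhibitory synapse organizer, nearest to the TSS of Klhdc7a, had 1.18 ± 0.22 and 1.20 ± 0.22 (adjusted p = 0.0012 and 0.0010). One in an intron of Asic2, an acid-sensing channel, nearest to 5530401A14Rik, had 0.97 ± 0.17 and 1.12 ± 0.17 (adjusted p = 0.00085 and 0.00020).

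Others of this kind were intronic in Arhgap15, a Rac GTPase-activating protein (0.88 with Neurog2+Hmgb2 and 1.13 with Neurog2), or intergenic near Mkrn1 (0.78 and 1.10), and both were called in both comparisons. Among the sites with the smallest p for Neurog2+Hmgb2 were those nearest to 2310079G19Rik (0.96 and 0.91 with Neurog2) and to Adcyap1, the gene of the neuropeptide PACAP (1.08 and 0.76 with Neurog2), and both were again called in both. Of the sites named by rule, 23 were called with Neurog2+Hmgb2 and 15 with Neurog2. With each library left out in turn, 12 and 9 of them kept their call, and 9 and 7 kept it under every other setting as well. The further loss came from the low signal filter alone, at Cntnap2, Kcnn2 and Epha3 with Neurog2+Hmgb2 and at Arhgap15 and Mkrn1 with Neurog2. A site that this filter removes from the test counts as lost. With Neurog2+Hmgb2, those lost in 3 or more of the fits that left out 1 library were Myc (6), Chd5 (5), Cflar (4), Grin2a (4) and St18 (3). With Neurog2, they were Grb14 (7), Gbe1 (5), Adcyap1 (4), Chd5 (3) and Kcnn2 (3).

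Gene lists were read next, by the nearest TSS. The potassium channel list had 3 of the 182 among its 192 peaks (1.56%, beside 0.399% of all peaks), and all 3 were called higher with both transductions in EGF + bFGF culture. They lay in introns of Trappc9 near Kcnk9, a leak channel gene, of Kcnh1, a voltage-gated channel gene, and of Kcnn2, a calcium-activated channel gene. The Kcnk9 site had 5.27, 5.84 and 5.78 with Neurog2+Hmgb2 and 5.01, 5.70 and 5.48 with Neurog2, against 4.75, 4.81 and 4.11 in EGF + bFGF Control. Its groups did not overlap with Control, and the differences were 1.07 ± 0.20 (adjusted p = 0.0014) and 0.84 ± 0.20 (adjusted p = 0.011). At Kcnh1 they were 0.92 and 1.01 and at Kcnn2 0.96 and 0.71. Kcnn2 is on chromosome 18, from which no sequence is shown. The sites opened by both were 8 of the 192 peaks of this list (4.17%, beside 2.29% of all peaks). Of the 17 lists, the endothelial one had a higher share of chosen sites, 2.22% from 1 site. No share of a list was tested.

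The axon guidance list had 3 chosen sites among 364 peaks (0.824%). The site near Epha3, an ephrin receptor, was called with Neurog2+Hmgb2 (1.02 ± 0.19, adjusted p = 0.0014) and not with Neurog2 (0.56 ± 0.19, adjusted p = 0.091). An intronic site of the Slit receptor Robo1 had 0.24 and 0.64, and a site near Sema6d, a semaphorin, had 0.10 and -0.06, with no call. The Robo1 site shows how replicate 2 entered the rule: in bFGF culture its Neurog2 libraries had 5.54, 4.26 and 5.23, against 4.88, 4.80 and 4.79 in Control, so that replicates 1 and 3 lay above Control and replicate 2 below it.

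Other lists had 2 sites or fewer. Of the neurogenic factors, only St18, a zinc-finger factor, had one, within its promoter region, called with Neurog2+Hmgb2 (0.70 ± 0.18, adjusted p = 0.023) and not with Neurog2 (0.32 ± 0.18, adjusted p = 0.41). Of the synapse list it was an intronic site of the NMDA receptor gene Grin2a, called with Neurog2+Hmgb2 (0.88) and not with Neurog2 (0.39). The neuronal cytoskeleton and early neuronal list had distant sites near Elavl2 (-0.20 and 0.07) and Map1b (0.49 and 0.07), neither called. The channel subunit gene Fgf14 had a promoter site at 5.80, 5.97 and 5.71 with Neurog2+Hmgb2 and 5.61, 5.72 and 5.41 with Neurog2, against 5.40, 5.36 and 5.46 in EGF + bFGF Control, not called in either comparison (adjusted p = 0.087 and 0.62).

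Single sites lay near the cell cycle inhibitor Cdkn1c (0.80 and 0.92, both called), near Myc (0.54, called but lost without any 1 of its 6 libraries, and 0.43), in an intron of the endothelial cadherin gene Cdh5 (0.85, called, and 0.46) and far from the progenitor factor Sox2 (0.18 and 0.15, not called). Promoter peaks of 1 of 5 endothelial markers were found, and a contribution of such cells was not tested. The lists of oligodendrocyte lineage, microglial and immune, fibroblast and mural, muscle, actin and adhesion, high mobility group genes, and the core neurogenic genes named by the study had 0 of the 182. The core neurogenic genes had 6 of the 1045 sites opened by both, among 68 peaks (8.82%, beside 2.29% of all peaks). The actin and adhesion list had 14 among 283 peaks (4.95%). Chosen sites made up 0.399% of all peaks, so 0 among so few peaks is not a result about these genes. The study took its core neurogenic factors from an earlier report of Neurog2-induced genes, and singled out some by expression in these cultures. No gene was nearest to more than 2 chosen sites. Those with 2 were Fhit, Sorcs3, Trabd2b, Tenm4 and Zfp746.

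By position, the sites were mostly distal. Promoters, taken as within 3 kb of a TSS, held 21 of the 182 (11.5%, Wilson 95% interval 7.67 to 17.0%), gene bodies 78 (42.9%) and intergenic DNA 83 (45.6%). Promoters made up 5.74% of the sites opened by both and 34.0% of all peaks. The median distance to a TSS was 52.9 kb at the chosen sites, 54.2 kb at sites opened by both and 15.4 kb over all peaks. In EGF + bFGF culture the median difference of the 21 promoter sites was 0.12 with Neurog2+Hmgb2 and 0.05 with Neurog2, with 2 called in each comparison. Those called were St18 and Glis2 with Neurog2+Hmgb2 and Bcl7a and Syt3 with Neurog2, of which Glis2, Bcl7a and Syt3 are named after their values were seen. Gene body sites had medians of 0.68 and 0.58 with 43 and 36 called, and intergenic sites 0.59 and 0.54 with 37 and 27 called. Over all peaks, 0.75% of promoter, 5.58% of gene body and 5.62% of intergenic peaks were called higher with Neurog2+Hmgb2, and 0.68%, 5.82% and 5.39% with Neurog2. No test was made between these classes. The near-identical genes Tmem254a and Tmem254b each had a promoter site, and reads could be split between them.

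In their content of CAGATG the chosen sites lay between other peaks and the sites opened by both. CANNTG of any kind was in 173 of the 181 windows with sequence (95.6%), in 97.8% of the windows of sites opened by both and in 75.9% of all. CAGATG was in 48.6% of the chosen windows (41.4 to 55.9%), in 65.9% (62.7 to 69.0%) of the sites with a bFGF Neurog2 difference of 0.2 to 0.5, in 78.7% (76.1 to 81.0%) of those opened by both, and in 32.0% of all peaks away from promoters. CAGCTG was in 49.2% (42.0 to 56.4%), 46.7%, 41.8% (38.9 to 44.8%) and 26.9% in that order, with overlapping intervals among the opened sites. CATATG was in 9.94% of the chosen windows (6.38 to 15.2%), 13.2% of those opened by both and 5.79% of peaks away from promoters. The share with neither CAGATG nor CAGCTG was 24.9% (19.1 to 31.6%) at the chosen sites, 14.4% and 8.71% at the other opened sites, and 49.9% of peaks away from promoters. The intervals cover counting error only and treat sites as independent.

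Chosen sites that lacked both E-boxes had smaller median differences in EGF + bFGF culture. The 45 sites with neither had medians of 0.30 with Neurog2+Hmgb2 and 0.07 with Neurog2, with 8 and 5 called. The 47 with CAGATG alone had 0.65 and 0.57 (26 and 19 called), the 48 with CAGCTG alone 0.62 and 0.56 (22 and 18 called), and the 41 with both motifs 0.65 and 0.62 (26 and 23 called). Over all peaks, calls with Neurog2+Hmgb2 made up 0.74% of windows with neither, 9.06% with CAGATG alone, 3.77% with CAGCTG alone and 17.3% with both. Calls with Neurog2 made up 0.79%, 8.64%, 4.12% and 17.0% in that order. For other factors, the octamer ATGCAAAT of POU proteins was in 5 of 181 windows (2.76%) and 2.39% of peaks away from promoters, the AP-1 motif TGANTCA in 20.4% and 35.3%, AACAAT of SOX factors in 11.6% and 13.4%, GGAATG of TEAD factors in 22.7% and 25.2%, and the palindromic NFI motif in 0 and 0.1%. Over all peaks, promoters included, the shares were 1.91%, 26.2%, 10.3%, 20.7% and 0.079% in that order. All motifs were read on both strands. A match is a stretch of letters, and binding was not measured.

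**Figure D5:**
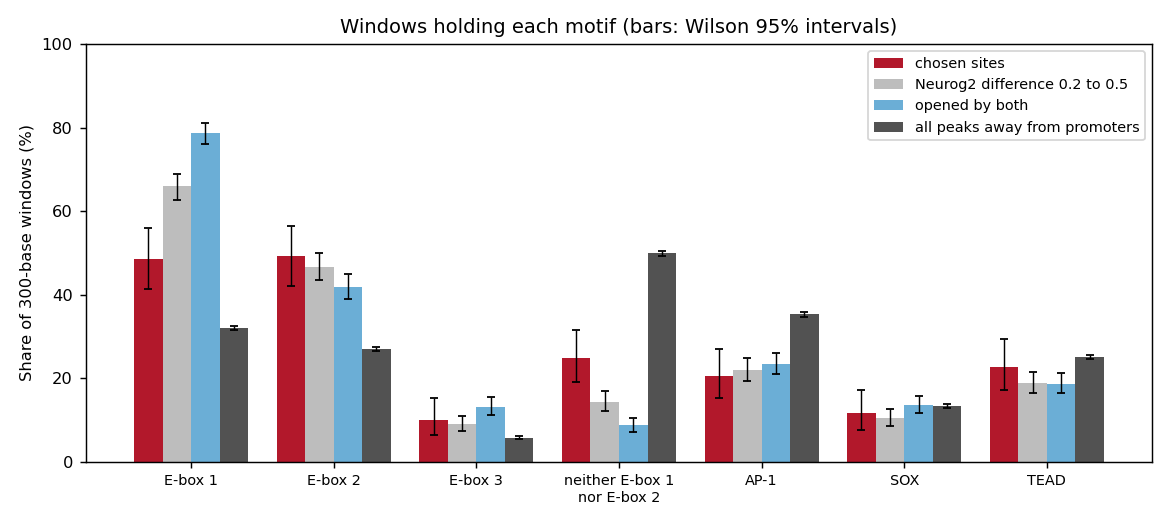
Share of 300-base windows (%) that hold each motif on either strand, at the chosen sites, at sites with a bFGF Neurog2 difference of 0.2 to 0.5, at sites opened by both, and at all peaks away from promoters. E-box 1 is CAGATG, E-box 2 is CAGCTG and E-box 3 is CATATG, and error bars are Wilson 95% intervals. E-box 1 climbs over the opened sites, at 48.6%, 65.9% and 78.7%, whereas E-box 2, at 49.2%, 46.7% and 41.8%, has overlapping intervals there.

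In width and level the chosen sites were near other distal peaks. Their median width was 423 bp, beside 428 bp for all peaks away from promoters, the median GC content was 51.7%, beside 49.0%, and repeats covered over 50% of the window at 10 of 181 sites. The median level in bFGF Control was 3.99, beside 3.81 at sites opened by both and 4.20 at peaks away from promoters. Of the 182, 127 had a mean over all libraries at or above the lower quartile of all peaks.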

How the data were processed

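ATAC-seq was measured in 25 libraries of 8 groups, taken from the labels. As the labels and the methods of the study state, the authors trimmed reads with cutadapt, aligned them to mm10 with Bowtie2, called peaks per sample with Genrich and merged them. The deposited table holds log2 values: the authors transformed counts per peak with the rlog of DESeq2 1.36.0, which scales libraries to each other and shrinks differences at peaks with few reads, so depth is unknown. The other deposited columns are the start, end and width of each peak. Starts count from 0 and are printed counting from 1. No column of sample values was left unused.

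The values were tested with limma 3.58.1 (R 4.3.3), with a mean for each of the 8 groups, the trended empirical Bayes prior and 17 residual degrees of freedom. The Benjamini-Hochberg adjustment took in all 45672 peaks, and a site was called at an adjusted p under 0.05. The script was tested on simulated data. The study used a count test, which rlog values do not allow. In all, 5 comparisons used no contrast of the rule. Positions came from GENCODE vM21, sequence from RefSeq GRCm38. Motifs were read in the 300 bases at a peak's centre, for 181 of the 182 sites. Transduced coding sequences were matched with blastn 2.17.0 (E-value limit 1e-10), to 29 peaks. The sequence of 1 site is not reported here.

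The sites and the gene lists were chosen with earlier results of these data known. Sites are named by rule: the 10 largest bFGF differences, 1 per gene, up to 6 sites per direction with the smallest adjusted p in each comparison, promoter sites and up to 3 others of each of 17 gene lists, sites at the limits of the rule, and genes with 3 or more sites, of which there were none. Alternatives were a replicate block, alone and with GC correction, the compared groups only, no trend, quantile normalization, a low signal filter, other limits of the rule, and each library left out.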

Additional observations from a re-analysis of the deposited data

Results flagged for a closer look

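In the EGF + bFGF Hmgb2 group, the only one with 4 libraries, the mean over the chosen sites and the 32 named sites were searched for a library far from the other 3, measured as its gap over the range of the group. Of the 33 searches, 2 passed the limit of Dixon's test for 4 samples, and chance passes about 1 in 20. At the Kcnn2 site the gap was 0.925 of the range, with the lowest library at 3.09 and the next at 3.34. At the Arhgap15 site it was 0.892, with the highest library at 3.72 and the next at 3.20. The high library there was replicate 1, which also had signal at the Neurog2 exon (12.3). Its part in this value was not tested.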

How the results depend on the processing

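The number of chosen sites followed the limits of the rule. With a bFGF Neurog2+Hmgb2 difference of at least 0.4, 0.6 or 1 the rule gave 417, 72 or 1 sites, and with a Neurog2 difference under 0.1, 0 or 0.3 it gave 63, 19 or 398. Quantile normalization gave 140 sites, of which 112 were among those reported, and GC correction gave 143. With each rule library left out, it gave 156 to 455 sites, the most without Neurog2+Hmgb2 replicate 1 and the fewest without Neurog2 replicate 2.

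For EGF + bFGF Neurog2+Hmgb2 against Control, 33 to 170 sites were higher as each library was left out, and 26 to 159 for Neurog2 against Control, the highest counts coming from the 329 sites chosen without bFGF Neurog2 replicate 3. Without bFGF Neurog2 replicate 1 the counts were 125 and 113 of 307. Without bFGF Neurog2 replicate 2, they were 61 and 30 of 156. Without bFGF Neurog2+Hmgb2 replicate 1, they were 122 and 118 of 455. The number of sites lower with Neurog2 ran from 0 to 19, the highest among the 373 sites chosen without bFGF Neurog2+Hmgb2 replicate 3. It was 3 in the fit of the compared groups only and 1 with GC correction and the replicate block. In the fit of the compared groups only, 1 site was higher with Neurog2+Hmgb2 than with Neurog2. The low signal filter left 43 sites higher with Neurog2, and it tests fewer sites by construction. The medians in held-out libraries ran from -0.14 to 0.38 for Neurog2+Hmgb2 minus Control, from 0.18 to 0.33 for Neurog2 minus Control and from -0.50 to 0.086 for Neurog2+Hmgb2 minus Neurog2, and both negative values were those of replicate 2. The share of all peaks called was not computed for the alternative fits. The cause of these shifts was not tested, other than the re-choice of sites that leaving out a rule library entails.

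The replicate block gave 81 and 68 sites higher with Neurog2+Hmgb2 and with Neurog2, and with GC correction 80 and 72, again without the share of all peaks. Libraries with the same number in other groups correlated between -0.47 and 0.40 after removing group means (median 0.05), so the numbers were not taken to pair them. Both comparisons of Hmgb2 without Neurog2 gave 0 called sites in every alternative run. The looser E-value limit of 0.001 matched 104 peaks and left 181 sites. The shares of CAGATG and CAGCTG in 200-base windows were 37.6% and 38.7% at the chosen sites, beside 18.8% and 17.9% over all peaks. The rlog values keep no counts, so the precision at shallow peaks could not be given.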
